A study of Mus musculus with 16 samples.

Results

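Squalestatin 1 (SQ1), an inhibitor of squalene synthase, was compared with no treatment in primary hepatocytes of male C57Bl/J mice. The comparison rests on the 8 arrays labelled as SQ1 treated, of 16 arrays in the series; the other 8 arrays measured pravastatin. The labels say that the cells were kept in Williams Medium E, that SQ1 was added 48 h after plating at 100 µM, and that treatment lasted 48 h. Pravastatin was given at 30 µM on the same schedule. Squalestatins are known to act on the enzyme at far lower concentrations, so the labelled unit may be wrong and the dose is only quoted. The controls were untreated cells of the same strain and sex, and the labels name no solvent control. Each array was a 2-colour hybridization in which SQ1 and untreated RNA bore opposite dyes, so that every array gave its own ratio of SQ1 over control. The treated RNA was labelled with Alexa 647 in replicates 1 to 4 and with Alexa 555 in replicates 5 to 8. The series describes the replicates as biological, but the number of mice and whether each replicate was a separate animal are not stated in the labels. The p-values therefore measure the spread between arrays, estimated from all 16 together.

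Cholesterol is made from acetyl-CoA through mevalonate and farnesyl pyrophosphate, and the liver is a main site of its synthesis. Squalene synthase joins farnesyl pyrophosphate into squalene, the first product that can only become sterol, while farnesyl pyrophosphate also feeds protein prenylation, dolichol and ubiquinone. When sterols in the endoplasmic reticulum run low, the SREBP transcription factors are released and raise the genes of cholesterol synthesis and lipoprotein uptake. The comparison asks which transcripts of the hepatocyte differ when the step to squalene is inhibited.

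On the 8 SQ1 arrays, 59.7% to 66.6% of the probes were well above background in a channel, the median spot intensity of a channel was 100 to 145.5, and no spot was saturated. The arrays lay on 2 slides, with replicates 1, 2, 5 and 6 on slide 1 and replicates 3, 4, 7 and 8 on slide 2, and all 8 were scanned on the same day. The effect of SQ1 was called different between the slides for many genes after loess normalization. It was for 11 genes after each array was only scaled to its median. These are counts of calls, and a difference that is no longer called need not be smaller. Values are therefore given for each slide where a result turns on it. All 6 hepatocyte markers (Alb, Ttr, Apoa1, Hnf4a, Serpina1a and Cps1) were well above background in all 8 control channels. Markers of other liver cells were detected too. Of 16 tested markers of Kupffer cells and leukocytes 15 were above background in all 8 control channels, of 16 stellate cell and fibroblast markers 15, of 14 endothelial markers 14, and of 11 cholangiocyte markers 9. In such bulk samples fewer cells of a type and less RNA per cell cannot be told apart.

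SQ1 changed many transcripts, most of them by little. Of 15053 genes tested, 4860 (32.3%) were called at an adjusted p of 0.05 in the limma fit, 2369 higher (15.7%) and 2491 lower (16.5%). Of the called genes 93.6% changed by less than 1.5-fold; 45 rose and 39 fell at least 2-fold. With slide as a random block 2543 genes (16.9%) were called, 1221 higher and 1322 lower. This fit is called the slide block below, and the same with scan day the scan-day block. All 8 SQ1 arrays were scanned on the same day, so the SQ1 arrays hold no spread between days. The scan-day block takes that spread from the pravastatin arrays, whose 2 slides were scanned on different days. It also moves the SQ1 estimates themselves. The median of the conjugating enzymes was 0.14 in the main fit and -0.02 under it. Called in both fits and of 1 sign on 8 of 8 arrays were 2309 genes (15.3%), 7.47% of those tested higher and 7.87% lower. Each array scaled to its median in place of loess gave 2071 calls and raised the share of higher calls from 48.7% to 71.1%, so that the balance of rises and falls depends on the normalization. Values below are log2 ratios of SQ1 over control with the dye effect of the gene removed. An error after ± is the standard error of the limma fit, and adjusted p-values are limma's. That fit takes 1 spread for each gene from all 16 arrays, those of pravastatin included. A gene is said to rise or fall only if it was called in this fit. Genes named as the largest rises or falls, of all genes or of a list, had to have 1 sign on 8 of 8 arrays. For them this sign count is a condition of naming and no further support. Of all genes tested 3510 (23.3%) had 1 sign on 8 of 8 arrays. The cholesterol synthesis genes were named without this condition.

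The enzymes of cholesterol synthesis rose at every step. All 8 tested genes from acetyl-CoA to farnesyl pyrophosphate and all 14 from farnesyl pyrophosphate to cholesterol were called higher, against 15.7% of all genes, with the same counts under the slide block and 8 and 13 under the scan-day block. These lists and those below were set down with earlier results of these data in view, so their counts describe the lists and are no separate evidence. The count of every list stands beside 15.7% of all genes called higher and 16.5% called lower. The median of the first list was 1.08 and that of the second 0.98, beside a median of -0.002 over all genes tested. On single arrays the medians ran from 0.82 to 1.45 and from 0.65 to 1.33, lowest in replicate 1 and highest in replicate 4 in both lists.

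Fdft1 encodes squalene synthase, the enzyme that SQ1 inhibits. Its ratio was 0.66 on the lowest array, 1.05 at the median and 1.53 on the highest. Treated cells were above control on 8 of 8 arrays, with replicate 1 the lowest and replicate 4 the highest. The rise was 2.09-fold (1.06 ± 0.09, adjusted p = 4.81e-07). Another probe of the gene read 0.33 ± 0.03.

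Upstream of squalene, Idi1, which isomerizes isopentenyl pyrophosphate, ran from 1.07 over a median of 1.37 to 2.0 and rose 2.66-fold (adjusted p = 9.59e-07). Hmgcs1, the cytosolic HMG-CoA synthase, gave 1.09, 1.32 and 1.91 as lowest, median and highest, a 2.6-fold rise. For both genes every array was more than 2-fold above control. Apart from Idi1, the genes of the enzymes that turn mevalonate into farnesyl pyrophosphate rose by 0.99 to 1.1: the kinases Mvk (1.05 ± 0.08) and Pmvk (1.03 ± 0.09), the decarboxylase Mvd (1.1 ± 0.07) and the synthase Fdps (0.99 ± 0.07). Acat2, the thiolase that opens the pathway, rose least of the 8 (0.43 ± 0.04), and its ratios of 0.21 to 0.59 did not overlap those of Hmgcs1.

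Downstream of squalene, Lss, the lanosterol synthase, had ratios of 1.14, 1.36 and 1.54 (lowest, median, highest) and rose 2.58-fold (adjusted p = 9.14e-10). The sterol 14-reductase Tm7sf2 followed with 1.23 ± 0.05, the lanosterol demethylase Cyp51 with 1.21 ± 0.10, the ketoreductase Hsd17b7 with 1.12 ± 0.05 and the dehydrogenase Nsdhl with 1.1 ± 0.07. Sqle, the squalene epoxidase, rose by 1.0 ± 0.11, Msmo1, the methyl sterol oxidase, by 0.97 ± 0.08 and Dhcr7 by 0.86 ± 0.09. The smaller rises included those of Sc5d (0.67 ± 0.07), Erg28 (0.61 ± 0.05), Ebp (0.46 ± 0.05) and Lbr (0.34 ± 0.05). Lbr and Tm7sf2 both encode sterol 14-reductases, and their ratios did not overlap, with 0.58 the highest for Lbr and 0.95 the lowest for Tm7sf2.

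**Figure D1:**
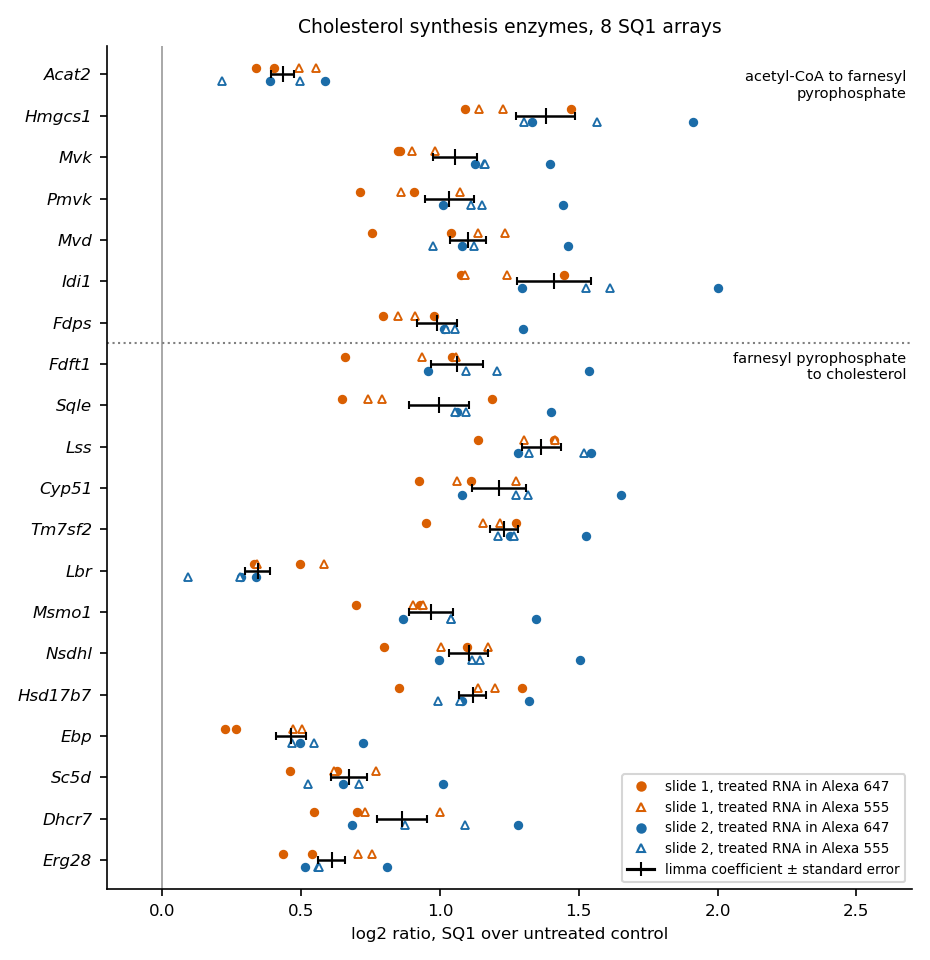
Log2 ratio of SQ1 over untreated control (horizontal axis) for 20 of the 22 cholesterol synthesis genes in pathway order, with 1 point for each of the 8 arrays, coloured by slide and shaped by dye, and the limma coefficient with its standard error in black. Every point lies above 0, and Idi1, Hmgcs1 and Lss lie farthest to the right.

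Because these genes moved together, their promoters in RefSeq (build GRCm38.p6; 250 bases before to 50 after the start) were searched on both strands for CCAAT, the box bound by NF-Y, which acts with SREBP, and for TCACNCC, the core of a sterol regulatory element. Of the 22 genes 17 had an entry, with 20 promoters. CCAAT was present in 15 of the 20 (75%), beside 37.4% of all 32851 promoters of the table. TCACNCC was present in 3 of the 20 (15%), beside 15.6% of all promoters. A match is only a match of letters. The 250 bases upstream of the start are shown for 5 of the 22 genes, picked to span the pathway and to show both kinds of match, with the matches in capitals (CCAAT or its reverse complement ATTGG, and TCACNCC).
Hmgcs1 (chr13:119690101-119690350, plus strand): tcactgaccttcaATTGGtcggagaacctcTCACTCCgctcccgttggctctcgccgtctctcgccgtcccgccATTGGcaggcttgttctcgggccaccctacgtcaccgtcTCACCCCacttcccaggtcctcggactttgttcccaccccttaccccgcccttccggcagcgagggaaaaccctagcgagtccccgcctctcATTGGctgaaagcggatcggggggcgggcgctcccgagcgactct
Mvk (chr5:114444019-114444268, plus strand): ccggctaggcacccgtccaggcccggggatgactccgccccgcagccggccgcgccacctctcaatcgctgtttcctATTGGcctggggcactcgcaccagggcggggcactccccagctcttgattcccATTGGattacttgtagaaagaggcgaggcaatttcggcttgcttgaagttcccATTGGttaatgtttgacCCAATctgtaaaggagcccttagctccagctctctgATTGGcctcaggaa
Lss (chr10:76531355-76531604, plus strand): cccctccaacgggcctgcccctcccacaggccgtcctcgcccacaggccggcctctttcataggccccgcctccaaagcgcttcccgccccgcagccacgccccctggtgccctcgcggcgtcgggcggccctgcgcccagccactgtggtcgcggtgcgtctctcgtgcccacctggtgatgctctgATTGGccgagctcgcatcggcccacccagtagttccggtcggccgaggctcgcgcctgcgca
Msmo1 (chr8:64733579-64733828, minus strand): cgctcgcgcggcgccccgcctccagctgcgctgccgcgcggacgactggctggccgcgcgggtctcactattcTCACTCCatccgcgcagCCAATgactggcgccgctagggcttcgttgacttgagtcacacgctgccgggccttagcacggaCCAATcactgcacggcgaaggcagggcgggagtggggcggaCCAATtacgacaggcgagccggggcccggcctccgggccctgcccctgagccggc
Nsdhl (chrX:72918271-72918520, plus strand): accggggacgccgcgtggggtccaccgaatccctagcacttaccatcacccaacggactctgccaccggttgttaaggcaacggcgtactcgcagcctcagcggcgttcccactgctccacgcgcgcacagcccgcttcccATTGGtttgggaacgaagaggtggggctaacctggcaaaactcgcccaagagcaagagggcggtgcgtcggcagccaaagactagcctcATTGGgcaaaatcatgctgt
The Hmgcs1 stretch held 2 cores and 3 boxes, that of Msmo1 1 core and 3 boxes, that of Mvk 5 boxes, that of Nsdhl 2 boxes and that of Lss 1 box.

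Most genes of the branches that use farnesyl pyrophosphate for other products were not called, as was true of all genes tested, of which 32.3% were called. The counts of the lists in this paragraph stand beside 15.7% of all genes called higher and 16.5% called lower. Of 19 tested genes of non-sterol isoprenoids and prenylation 2 rose and 3 fell, with a median of 0.01; under either block 1 rose and 1 fell, after median centring 1 rose and none fell, and without replicate 1, 3, 5, 6 or 7 the rises were 1. Ggps1, which makes geranylgeranyl pyrophosphate, was at 0.04 ± 0.03 and was not called. Nus1, a subunit of the dolichol-making enzyme, rose on the probe used (0.29 ± 0.03), while its other probe read -0.26. Icmt, the methyltransferase of prenylated proteins, fell by 0.18 ± 0.03 and was not called after median centring, and 1 of its other probes read 0.06. Among the prenylated small GTPases 2 of 19 rose and 2 fell, and none fell after median centring or under the scan-day block. The endosomal Rab7 rose by 0.49 ± 0.05 and Rhoq by 0.30 ± 0.04, Rnd1 fell (-0.17 ± 0.03), and Rhob fell on the probe used (-0.28 ± 0.06) but read 0.04 on another. Rnd1 and Rhob were not called after median centring or under the scan-day block.

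The regulators of the pathway moved in both directions. Insig1, the sterol-sensing anchor that holds SREBP back and is itself raised by it, had ratios of 0.61, 1.07 and 1.53 and rose 2.06-fold. All 8 arrays were above control, with the widest spread of the 13 genes of this list. Srebf2, the SREBP of cholesterol genes, rose by 0.44 ± 0.04 (0.20 on another probe) and Scap, the escort of SREBP, by 0.17 ± 0.03. Srebf1, the SREBP of fatty acid genes, fell instead (-0.38 ± 0.08), with slide means of -0.63 and -0.14 (adjusted p = 0.000635 for the difference between slides, which was not called after median centring). Erlin1, a protein of lipid-rich domains of the endoplasmic reticulum, fell by 0.48 ± 0.11. Insig2 was at 0.02 ± 0.06 and was not called. In all, 5 of these 13 genes rose and 3 fell, beside 15.7% of all genes called higher and 16.5% called lower. There were 3 rises after median centring or under the scan-day block, and no falls after median centring. Scap, Srebf1 and Erlin1 were not called after median centring, nor Scap under the scan-day block.

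Among 19 genes of lipoprotein uptake and cholesterol transport 7 rose and 4 fell, beside 15.7% of all genes called higher and 16.5% called lower. Stard4, a cytosolic sterol carrier, rose most, with ratios of 0.53, 0.80 and 1.05 and a fold of 1.76. The NPC1-binding protein Tmem97 rose by 0.43 ± 0.08 and was not called under the scan-day block. Npc2, which hands on cholesterol in lysosomes, rose by 0.41 ± 0.03. Receptors of lipoproteins were among the falls: Vldlr, the VLDL receptor, from -1.75 to -0.70 with a median of -0.85, was below control on 8 of 8 arrays and 2.06-fold lower, and Scarb1, the HDL receptor, was at -0.17 ± 0.03 (-0.07 on another probe) but not called after median centring. The 4 falls became 2 without replicate 2, 3, 5 or 6 and under the slide block, and 1 after median centring. Among 10 LXR targets and genes of sterol efflux, Abca1, the exporter of cholesterol to HDL, fell by 0.57 ± 0.07 and Abcg1 by 0.33 ± 0.06, while Lpcat3 rose by 0.35 ± 0.05 and the phospholipid transfer protein Pltp by 0.38 ± 0.04. Abcg5 and Abcg8, the biliary sterol exporters, were not called, at 0.26 ± 0.17 and 0.06 ± 0.06.

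In the list of fatty acid synthesis and desaturation, and in that of triglyceride synthesis, lipolysis and droplet coats, more genes rose than fell. In the first 12 of 20 rose and 2 fell (median 0.23), and in the second 15 of 25 rose and 1 fell (median 0.21). Under the scan-day block 8 of the 20 and 8 of the 25 rose. In the first list none fell after median centring, and 1 fell under either block or without replicate 1, 2, 5 or 6. Scd2, a stearoyl-CoA desaturase, had ratios of 1.55, 1.75 and 2.18, a 3.53-fold rise, while its paralog Scd1, the desaturase that prevails in adult liver, was below control on all 8 arrays, from -1.45 to -0.06, and Scd3 fell by 0.39 ± 0.08 on the probe used, though not after median centring, and read -0.01 and -0.15 on others. The paralogs did not overlap on any array. Scd1 was not called after median centring (-0.44, adjusted p = 0.111). Acss2, which makes acetyl-CoA from acetate, rose 2.9-fold, with ratios of 1.12 to 1.97. Acacb, the acetyl-CoA carboxylase that controls fatty acid entry into mitochondria, rose by 1.09 ± 0.07 (0.38 on another probe), whereas Acaca, the carboxylase of synthesis, was at -0.16 ± 0.12 and Fasn, the fatty acid synthase, at 0.24 ± 0.13, both not called. The polyunsaturated fatty acid desaturases Fads1 and Fads2 rose by 0.66 ± 0.06 and 0.58 ± 0.05. Of the phosphatidate phosphatases Lpin2 rose by 0.72 ± 0.13 and Lpin3 by 0.35 ± 0.05. Lpin1 rose by 0.79 ± 0.06 on the probe used, while its other probe read 0.01 ± 0.06. The acyltransferase Agpat3 rose by 0.46 ± 0.04. The lipid droplet protein Cidec rose on the probe used (0.45 ± 0.07), while its other probe read -0.01.

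Targets of PPARalpha, the nuclear receptor that senses fatty acids, held the largest rise of all. Acot1, a cytosolic acyl-CoA thioesterase, had ratios of 2.42 on the lowest array, 2.69 at the median and 2.79 on the highest. It was 6.24-fold above control (adjusted p = 2.3e-12), all 8 arrays lay close together, and the slides read 2.65 and 2.64. The neighbouring members of the thioesterase family rose less: Acot3 by 1.7 ± 0.10, Acot2 by 0.87 ± 0.14, Acot4 by 0.75 ± 0.10 and, except under the scan-day block, Acot6 by 0.19 ± 0.04, while the peroxisomal Acot8 was at -0.02 ± 0.04. Acot5 rose by 1.6 ± 0.06 on the probe used, and its other probe read 0.04 ± 0.02. These genes are close in sequence, and whether a probe reads only its own member was not tested.

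The fatty acid hydroxylases of the Cyp4a family rose next. Cyp4a14 had ratios of 1.21, 2.01 and 2.85 and was 3.9-fold higher. Every array was at least 2-fold above control, but the arrays differed by more than for Acot1. Cyp4a31 (1.53 ± 0.10), Cyp4a10 (1.5 ± 0.10) and Cyp4a32 (1.33 ± 0.12) rose with it, and Cyp4a12a, a form typical of the male liver, was not called (-0.24 ± 0.16). Pdk4, a kinase of pyruvate dehydrogenase, rose 2.61-fold with little spread (1.19 to 1.57). Angptl4, an inhibitor of lipoprotein lipase, rose by 0.64 ± 0.03, the uncoupling protein Ucp2 by 0.85 ± 0.04 and the fatty acid carrier Cd36 by 0.49 ± 0.07. Fabp1, the fatty acid binding protein of the hepatocyte, rose by 0.95 ± 0.25, though not under the scan-day block, with slide means of 0.46 and 1.45.

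Of 25 genes in this PPARalpha list 17 rose and 5 fell (median 0.64), and of 29 genes of mitochondrial and peroxisomal beta-oxidation 16 rose and none fell (median 0.25). Ehhadh, the peroxisomal bifunctional enzyme, rose by 0.80 ± 0.11, Eci2 by 0.56 ± 0.05, the carnitine carrier Slc25a20 by 0.47 ± 0.05 and Cpt1a, which commits fatty acids to mitochondria, by 0.45 ± 0.06. Under the scan-day block 8 of the 29 were called. The 5 PPARalpha targets that fell included Fgf21, a fasting hormone (-0.81 ± 0.20), the ketone body enzyme Bdh1 (-0.52 ± 0.08) and Vnn1 (-0.24 ± 0.08). After median centring none of the 25 was called lower, and 3 were under the slide block or without replicate 1, 2, 3 or 6. Vnn1 was not called under the slide block or without replicate 1, 2, 3, 6 or 8. Of the 29 beta-oxidation genes 16 differed between the slides, none after median centring, with list medians of 0.13 on slide 1 and 0.37 on slide 2.

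**Figure D2:**
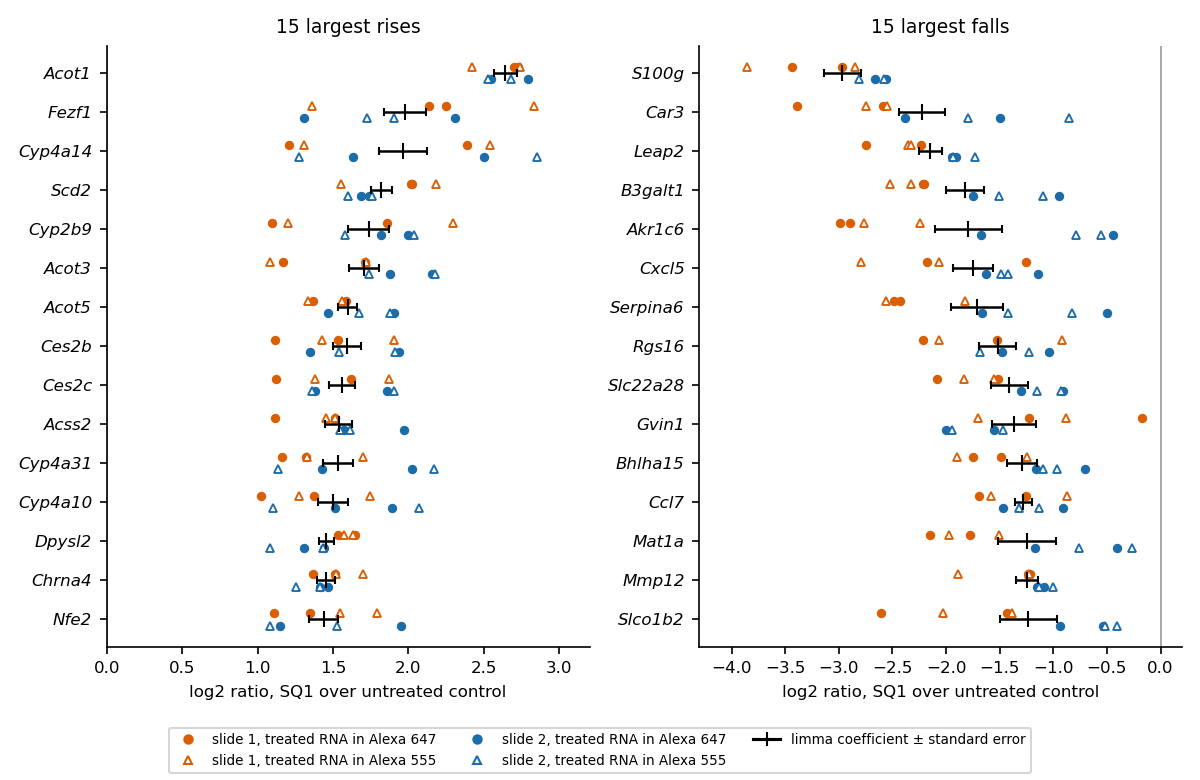
Log2 ratio of SQ1 over untreated control for the 15 genes with the largest rise (left) and the 15 with the largest fall (right), 1 point for each of the 8 arrays, coloured by slide and shaped by dye, with the limma coefficient and its standard error in black. Acot1 points lie between 2.42 and 2.79, and many of the falls, such as Akr1c6 and Serpina6, are larger on slide 1.

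Genes of drug metabolism moved in both directions, with more rises than falls in the lists. Of the cytochromes Cyp2b9 and Cyp2b10, the latter is a known target of CAR, the receptor that responds to phenobarbital. Cyp2b9 ratios were 1.1, 1.84 and 2.29, a 3.33-fold rise, and Cyp2b10 ratios 0.82, 1.44 and 1.75, a 2.5-fold rise. Both were above control on 8 of 8 arrays. Cyp2c55 rose by 0.99 ± 0.10 and Cyp2c29 by 0.48 ± 0.07, while Cyp2c50 fell (-0.38 ± 0.08). Cyp2c37 and Cyp2c38 rose on the probes used (0.73 ± 0.08 and 1.27 ± 0.13), but each read -0.41 on its other probe. Of the 24 tested genes of this list 12 rose and 1 fell, with 7 and 1 under the scan-day block. The list median was 0.04 on slide 1 and 0.66 on slide 2, and 10 of the 24 differed between slides, 2 after median centring. Cyp2c23, an arachidonic acid epoxygenase that the list holds under another symbol and that is not among the 24, fell by 1.08 ± 0.18. Cyp2c50 was not called after median centring.

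The Cyp3a genes, which are targets of PXR, did not behave alike on the slides. Cyp3a11 was at -0.46 on slide 1 and 0.91 on slide 2, and Cyp3a25 at -0.43 and 1.26 (adjusted p = 0.0179 and 0.000987 for the difference between slides). After median centring Cyp3a25 differed between slides and Cyp3a11 was not called different. Neither was called over the 8 arrays, and the direction for this family is not settled by these data.

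Of the other enzymes of this kind, the carboxylesterases Ces2b and Ces2c rose 3.01-fold and 2.95-fold, with lowest ratios of 1.11 and 1.12. Members of the sister family fell, Ces1b by 0.96 ± 0.17 and Ces1c by 0.85 ± 0.17. The sulfotransferases Sult2a1 (1.28 ± 0.12), Sult1d1 (1.03 ± 0.12) and Sult1a1 (0.55 ± 0.12, not called under the scan-day block) rose, and the glucuronosyltransferases Ugt2b1 (-1.12 ± 0.25), Ugt3a2 (-0.98 ± 0.18) and Ugt3a1 (-0.37 ± 0.09) fell. Of 32 conjugating enzymes 11 rose, 6 of them by count under the scan-day block, and 3 fell, and 18 differed between the slides, none after median centring. Por, which passes electrons to all of these cytochromes, rose by 0.60 ± 0.04 and Alas1, the first enzyme of haem synthesis, by 0.60 ± 0.05 (0.19 on another probe), the only called genes of 14 in that list beside Cyb5a (0.29 ± 0.10); 5 rose with array weights or with the mean of all probes of a gene. Cyb5a was not called under either block, after median centring or without replicate 2, 3, 4, 6, 7 or 8. The exporter Abcc2 rose by 0.44 ± 0.05 and the basolateral Slc51b by 0.38 ± 0.06.

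Cyp1a1, the leading target of the aryl hydrocarbon receptor, had ratios of 0.85, 1.14 and 2.5 and rose 2.44-fold. Replicate 7 was far above the other arrays. Of 16 NRF2-responsive genes 9 rose and 1 fell (median 0.18). Slc7a11, the cystine carrier, rose by 0.78 ± 0.09, Abcc4 by 0.59 ± 0.15, Gclc, which starts glutathione synthesis, by 0.55 ± 0.08 and Txnrd1 by 0.34 ± 0.04. Hmox1, a haem-degrading enzyme often used to read NRF2, was at 0.06 ± 0.06 and was not called. Osgin1 fell (-0.30 ± 0.06), though not after median centring.

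Chaperones of the endoplasmic reticulum and genes of the integrated stress response fell. Of 23 chaperone and folding genes 18 fell and none rose, against 16.5% of all genes called lower (median -0.32); 16 fell with the slide block and 7 after median centring. Hspa5, the chaperone BiP, had ratios of -0.74, -0.69 and -0.46 and was 1.56-fold lower (adjusted p = 1.93e-07). Every array was below control. Derl3 (-0.68 ± 0.06), of the degradation machinery, and the cochaperones Sdf2l1 (-0.61 ± 0.05) and Dnajb9 (-0.52 ± 0.09) fell by similar amounts, Dnajb9 not after median centring. Xbp1, the factor that raises these genes, fell by 0.39 ± 0.06, though not after median centring. In the ATF4 and CHOP list 10 of 17 fell and none rose (median -0.30), with 5 under the slide block and 1 after median centring. Ddit3, which encodes CHOP, was at -0.54 ± 0.14, Trib3 at -0.43 ± 0.11 and the serine synthesis genes Phgdh and Psat1 at -0.50 ± 0.07 and -0.47 ± 0.07. Of these 4, Phgdh was still called after median centring. Bhlha15, a transcription factor of secretory cells, fell 2.45-fold, with ratios of -1.9 to -0.71.

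Many genes of secreted liver proteins fell as well. Of 23 acute phase genes 18 fell and none rose (median -0.44). Fgg, the gamma chain of fibrinogen, had ratios of -1.5, -1.04 and -0.83 and was 2.13-fold lower, and the other chains Fga and Fgb were at -0.86 ± 0.07 and -0.52 ± 0.06. Steap4 (-1.11 ± 0.10), a metalloreductase of the acute phase, and the glycoproteins Orm1 (-0.72 ± 0.10) and Orm2 (-0.71 ± 0.09) fell too, while Lcn2 (0.01 ± 0.06), Crp (-0.02 ± 0.09) and Hamp (0.28 ± 0.19) were not called. In coagulation and complement 13 of 28 genes differed between slides, none after median centring, with list medians of -0.52 on slide 1 and -0.14 on slide 2. Over the 8 arrays 19 of the 28 fell and 1 rose (median -0.34). The terminal complement genes C9 (-1.07 ± 0.08) and C8a (-1.05 ± 0.08), the lectin Mbl2 (-0.83 ± 0.09) and antithrombin, Serpinc1 (-0.79 ± 0.16), were among them. Among plasma carriers, apolipoproteins and serpins 15 of 24 fell and none rose (median -0.31). Serpina6, the corticosteroid carrier, had ratios of -2.56, -1.74 and -0.50 and fell 3.28-fold, the slide means being -2.32 and -1.1 (adjusted p = 0.00621 for the difference, not called after median centring). Apoc1 (-1.05 ± 0.10), Apoa2 (-0.73 ± 0.13) and Serpina7 (-0.57 ± 0.05) fell, whereas Alb (-0.08 ± 0.08), Ttr (-0.20 ± 0.09) and Apob (0.01 ± 0.19) were not called. After median centring 12 of the 23 acute phase genes, 8 of the 28 coagulation and complement genes and 5 of the 24 carriers fell.

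Most chemokine genes and other targets of NF-kB fell, and most interferon-stimulated genes rose. Of 15 chemokine and NF-kB genes 10 fell and 2 rose, 1 of them by count under either block (median -0.26). Cxcl5, a neutrophil attractant, had ratios of -2.79, -1.56 and -1.14 and was 3.35-fold lower, below control on 8 of 8 arrays. Ccl7, a monocyte attractant, was at -1.7, -1.28 and -0.87, 2.43-fold lower. Cxcl1 (-1.05 ± 0.07), Il6 (-0.76 ± 0.07) and Vcam1 (-0.50 ± 0.09, not called under the scan-day block) fell with them, and Ccl5, a T cell attractant, rose (0.73 ± 0.07). Markers of Kupffer cells and leukocytes, which make many chemokines, moved as well. Of 16 tested 8 fell (5 after median centring) and 1 rose, with list medians between -0.26 and -0.07 on the 8 arrays. The macrophage markers Adgre1 (-0.64 ± 0.07), Cd5l (-0.79 ± 0.07), Lyz2 (-0.42 ± 0.04) and Csf1r (-0.36 ± 0.03) and the leukocyte marker Ptprc (-0.25 ± 0.03) fell, while the Kupffer cell markers Clec4f (-0.12 ± 0.06), Vsig4 (-0.05 ± 0.08) and Timd4 (-0.05 ± 0.03) were not called, and Csf1r was not called after median centring and read -0.05 on another probe. The macrophage elastase Mmp12 fell 2.37-fold, from -1.89 to -1.0. The part of these cells in the fall of the chemokines was not tested.

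Of 17 interferon-stimulated genes 11 rose and none fell (median 0.30), but the arrays differed widely. The median of the list was -0.15 on replicate 2 and 0.61 on replicate 1, and 5 genes rose under either block and 7 with the 8 SQ1 arrays fitted alone. Without replicate 5 or 6 the count was 5, and without replicate 1 or 8 it was 6. Rsad2, the antiviral viperin, ranged over 0.11, 0.85 and 1.86 and rose 1.83-fold. Oasl1 (0.45 ± 0.09), Usp18 (0.38 ± 0.08) and Bst2 (0.18 ± 0.04) rose less. Gvin1, a large GTPase induced by interferon, went the other way, 2.58-fold lower, with ratios of -2.0 to -0.18. Markers of endothelium, another cell type of the liver, rose in 6 of 14 and fell in none (median 0.12), beside 15.7% of all genes called higher. The rises were led by Lyve1 (0.47 ± 0.08), Gpr182 (0.38 ± 0.07), Stab1 (0.26 ± 0.04) and Pecam1 (0.26 ± 0.06), while Stab2 was at -0.08 ± 0.06.

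Proliferation genes fell almost without exception. Of 28 genes of DNA replication and mitosis 26 fell and none rose (median -0.45), with 21 under the slide block, 20 after median centring and 14 under the scan-day block. Birc5, the mitotic survivin, had ratios of -1.6, -0.78 and -0.22 and was 1.85-fold lower. Mki67 (-0.74 ± 0.13), Cdc20 (-0.76 ± 0.13) and Ube2c (-0.73 ± 0.12) fell with it. All 4 were below control on 8 of 8 arrays, which was a condition of naming them. The list median ran from -0.84 to -0.11 over the arrays. Which cells of the culture were cycling is not given by bulk RNA. Of 14 p53 targets 8 rose and none fell, and 5 rose under either block or after median centring, with Trp53inp1 at 0.56 ± 0.05, Eda2r at 0.29 ± 0.04, Tnfrsf10b at 0.22 ± 0.04 and Ccng1 at 0.21 ± 0.03. Among SRF and YAP responsive genes of the actin cytoskeleton 8 of 21 fell and 2 rose. The list median was -0.002 on slide 1 and -0.36 on slide 2, and 8 of the 21 differed between slides, none after median centring. Under the scan-day block 4 fell and none rose, and after median centring 5 fell. The rises were 1 under the slide block or without replicate 1, 2 or 5. Thbs1 (-0.56 ± 0.09), Ankrd1 (-0.49 ± 0.09), Cnn1 (-0.48 ± 0.10) and Fos (-0.40 ± 0.05) fell and Vcl, which encodes vinculin, rose (0.19 ± 0.05). Cnn1 and Vcl were not called under the scan-day block.

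Organelle genes changed little, and their counts stand beside 15.7% of all genes called higher and 16.5% called lower. Of 19 lysosomal genes 12 rose and none fell, with a median of 0.15 (5 rose under the scan-day block), led by the protease Ctsd (0.42 ± 0.05), the proton pump subunit Atp6v1a (0.30 ± 0.03) and Lamp2 (0.25 ± 0.04, 0.10 on another probe). Of 22 cytosolic ribosomal protein genes 2 rose, none under either block, after median centring or without replicate 1 or 5, 1 without replicate 8 and 4 without replicate 6. Of 19 respiratory chain genes 4 fell (median -0.06), 2 under the scan-day block and none after median centring, where the median was 0.07 and so turned in sign.

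**Figure D3:**
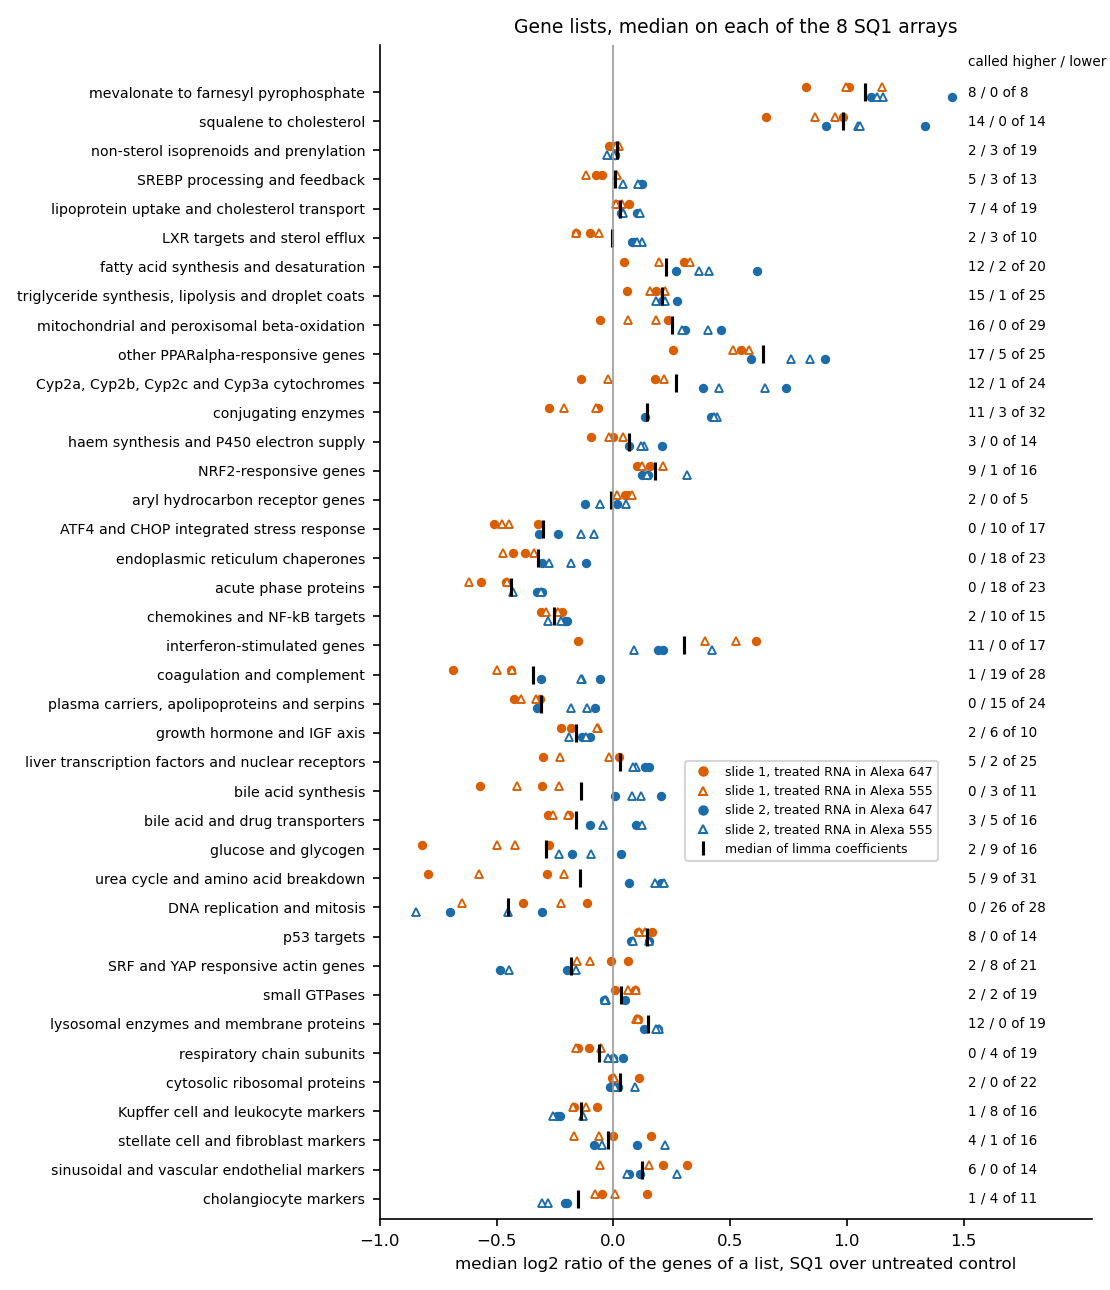
Median log2 ratio of SQ1 over untreated control for the tested genes of each of 39 lists (rows), 1 point for each of the 8 arrays, coloured by slide and shaped by dye, with the median of the limma coefficients as a black bar and the numbers called higher and lower of those tested at the right. The 2 cholesterol lists stand at the far right, the lists of secreted proteins, chaperones and proliferation on the left, and the lists of bile acid synthesis and of urea cycle and amino acid genes lie below 0 on slide 1 and above 0 on slide 2.

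In several lists of hepatocyte metabolism many genes were called different between the slides after loess, and few or none after median centring. In the list of urea cycle and amino acid breakdown 5 of 31 rose, 9 fell and 22 differed between slides, against 12.3% of all genes, with a list median of -0.44 on slide 1 and 0.14 on slide 2. After median centring none of the 31 differed between slides and 3 fell. The 5 rises became 3 under the slide block or without replicate 4, 7 or 8, and 1 under the scan-day block. Otc, an enzyme of the urea cycle, not called after median centring, was at -1.57 on slide 1 and -0.21 on slide 2. Some falls were seen on every array. Mat1a, which makes S-adenosylmethionine in the liver, had ratios of -2.15, -1.34 and -0.27 and was 2.38-fold lower, with -1.85 on slide 1 and -0.65 on slide 2. The tyrosine enzyme Hpd (-0.92 ± 0.15), the phospholipid methyltransferase Pemt (-0.84 ± 0.15) and glutaminase 2, Gls2 (-0.47 ± 0.11), fell, the last not after median centring. Of 16 genes of glucose and glycogen 9 fell (3 after median centring) and 2 rose. The counts of this list and of the amino acid list stand beside 15.7% of all genes called higher and 16.5% called lower. The glucose carrier Slc2a2 had ratios of -1.73, -0.79 and -0.21 and fell 1.75-fold. Replicate 1 was far below the other arrays. Fbp1 (-0.74 ± 0.16) and Pfkfb3 (-0.43 ± 0.06) fell as well, Fbp1 not after median centring, while Pfkfb1 rose (0.35 ± 0.08) but was not called under the scan-day block.

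In bile acid synthesis 3 of 11 tested genes fell and none rose, beside 16.5% of all genes called lower and 15.7% called higher. Of the 11, 1 fell under either block, after median centring or without replicate 1, 2 or 5. Between slides 8 of the 11 differed, 1 after median centring. Cyp7a1 and Cyp8b1 did not pass the filter on dim probes. Akr1c6, a hydroxysteroid dehydrogenase, had ratios of -2.99, -1.96 and -0.44 and was 3.46-fold lower. It was below control on 8 of 8 arrays but the slide means, -2.72 and -0.86, differed (adjusted p = 0.00139), as they did after median centring. Among bile acid and drug transporters the uptake carriers Slco1b2 (-1.23 ± 0.27) and Slco1a1 (-1.13 ± 0.12) fell. Slco1a1 was well above background in the treated channel of 6 of the 8 arrays. In the growth hormone axis the receptor Ghr (-0.44 ± 0.10, -0.18 ± 0.14 on another probe) and Igfbp1 (-0.49 ± 0.11) fell and Igfbp4 rose (0.27 ± 0.05); 6 of 10 genes fell, 2 under the slide block or without replicate 3 or 7, 3 under the scan-day block or without replicate 2, 4 or 8, and none after median centring; Igfbp4 was not called under the scan-day block. Of 25 liver transcription factors and nuclear receptors 5 rose and 2 fell, beside 15.7% of all genes called higher and 16.5% lower. The list median was -0.21 on slide 1 and 0.10 on slide 2, and 9 of the 25 differed between slides, none after median centring. The rises were 3 without replicate 7 or after median centring, 2 under the slide block and 1 under the scan-day block. No fall was called under either block, after median centring or without replicate 1 or 5, 1 was without replicate 6, and 4 were with the 8 SQ1 arrays fitted alone. Foxa1 (0.24 ± 0.03) and Rxra (0.24 ± 0.05) rose, Rxra not under the scan-day block and at 0.01 ± 0.05 on another probe, and Hnf4a (-0.08 ± 0.09) and Ppara (0.26 ± 0.22) were not called.

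Several of the largest changes lay outside the lists. S100g, the small calcium-binding protein calbindin D9k, fell furthest, with ratios of -3.86, -2.83 and -2.56. It was 7.81-fold lower (adjusted p = 5.95e-09) and below control on all 8 arrays. Car3, a carbonic anhydrase, ran over -3.39, -2.47 and -0.86 and was 4.67-fold lower. Leap2, a liver peptide that blocks the ghrelin receptor, ran over -2.75, -2.09 and -1.73 and was 4.43-fold lower. Their falls were larger on slide 1. B3galt1, a galactosyltransferase (-1.82 ± 0.18), Rgs16, a brake on G protein signalling (-1.52 ± 0.17), and Slc22a28 of the organic anion transporter family (-1.41 ± 0.17) followed.

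Among the rises outside the lists, Fezf1, a zinc finger factor of forebrain development, had ratios of 1.31, 2.02 and 2.83 and was 3.94-fold higher. Every array was above control, lowest in replicates 4 and 5 and highest in replicate 6. Dpysl2, a cytoskeletal protein of growing axons (1.46 ± 0.05), Chrna4, a nicotinic receptor subunit (1.45 ± 0.06), and Nfe2, a transcription factor of blood cell formation (1.44 ± 0.09), rose too, and each was well above background in all 16 channels. Of the stellate cell markers Lrat, which stores vitamin A, rose by 0.95 ± 0.10, Ecm1 by 0.41 ± 0.10 and Pdgfra by 0.33 ± 0.08, while Col1a1 was at -0.01 ± 0.13. Of the 16 markers 4 rose and 1 fell (median -0.02), beside 15.7% of all genes called higher and 16.5% called lower. Under the scan-day block 2 rose, Pdgfra not among them. Of 11 cholangiocyte markers 4 fell, 2 under the slide block and none under the scan-day block. Spp1 was at -0.65 ± 0.12, Krt19 was at -0.10 on slide 1 and -0.90 on slide 2, and Epcam was at 0.01 ± 0.05.

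Across all genes 1847 (12.3%) differed between the SQ1 slides at an adjusted p of 0.05, and 11 after median centring. Among these 11 the median-centred difference, slide 1 minus slide 2, was -2.01 for Akr1c6 and -1.81 for Cyp3a25. The adjusted p-values of limma were 0.0474 and 0.0278. The sizes of the differences no longer called are not given here. The genes with the largest differences that were lower on slide 1 were Akr1c6, Ces1f (-1.31 and 0.51 on the slides in order), Cyp3a25, Cyp3a57 (-0.35 and 1.13), Cyp3a11 and Otc. Those higher on slide 1 were Dpysl3 (0.71 and -0.23), Igfbp3 (0.63 and -0.24), Tnfsf18 (-0.56 and -1.42), Ivl (0.84 and 0.01), Fam102b (0.13 and -0.68) and Fgd3 (0.17 and -0.64). The slides also held different replicates, so that slide and culture cannot be told apart. Of the 22 cholesterol genes 1 was called different, Mvk, at 0.90 and 1.21.

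**Figure D4:**
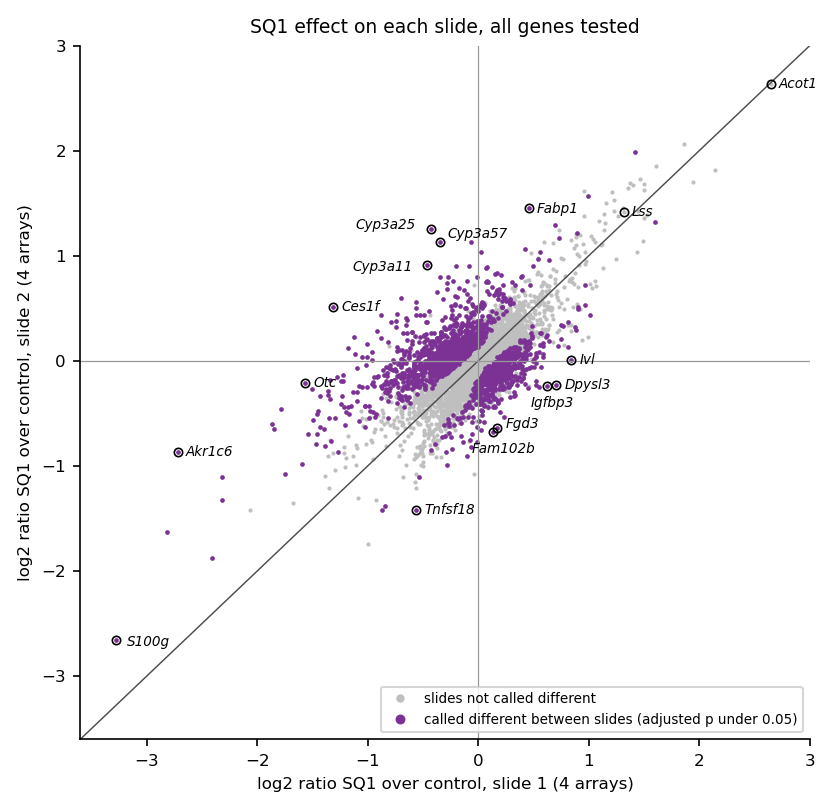
Log2 ratio of SQ1 over untreated control on slide 1 (horizontal axis, 4 arrays) against slide 2 (vertical axis, 4 arrays) for the 15053 genes tested, with the 1847 called different between slides in purple. Acot1 and Lss lie near the diagonal, while Cyp3a25, Cyp3a57, Cyp3a11 and Ces1f lie below 0 on slide 1 and above 0 on slide 2.

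Pravastatin, a statin, which inhibits an earlier step of the pathway, was measured on the other 8 arrays against untreated cells, at a dose that differs from that of SQ1 and on slides of its own. The series counts 8 control replicates in all, so that both comparisons may share their control cultures. Values of both are set side by side, and the difference was tested in the same limma fit. SQ1 and pravastatin differed in 7996 of 15053 genes (53.1%), with SQ1 higher in 29.3% and lower in 23.8%. They differed in 5716 genes under the slide block and in 3697 after median centring. All 8 genes up to farnesyl pyrophosphate and 13 of the 14 after it were higher with SQ1 than with pravastatin; the exception was Lbr. Fdft1 was at 1.06 ± 0.09 with SQ1 and 0.48 ± 0.09 with pravastatin (difference 0.58 ± 0.13, adjusted p = 0.00149). Lss was at 1.37 ± 0.07 and 0.68 ± 0.07 (difference 0.69 ± 0.10, adjusted p = 2.19e-05).

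The genes of PPARalpha and drug metabolism stood further apart. Acot1 was at 2.64 ± 0.08 with SQ1 and -0.83 ± 0.08 with pravastatin, a difference of 3.47 ± 0.11 (adjusted p = 7.59e-12), and its lowest SQ1 array (2.42) was above the highest pravastatin array (-0.48). Cyp4a31 (1.53 ± 0.10 and -1.35 ± 0.10), Cyp4a10 (1.5 ± 0.10 and -1.15 ± 0.10) and Cyp2c38 (1.27 ± 0.13 and -1.91 ± 0.13, on the probe used) also rose with SQ1 and were lower than control with pravastatin. Akr1c6, Slc2a2, Slco1b2 and Arrdc3, an arrestin-like protein, were below control with both, by more with pravastatin: Akr1c6 stood at -1.79 ± 0.31 and -5.64 ± 0.31, Slc2a2 at -0.81 ± 0.17 and -4.55 ± 0.17, Slco1b2 at -1.23 ± 0.27 and -4.2 ± 0.27 and Arrdc3 at -1.03 ± 0.19 and -3.8 ± 0.19.

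In the other direction, Serpinb2, an inhibitor of plasminogen activators, was at -1.14 ± 0.12 with SQ1 and 1.2 ± 0.12 with pravastatin. The chemokine Cxcl3 (-0.62 ± 0.11 and 1.43 ± 0.11), the transcription factor Insm1 (-0.54 ± 0.07 and 1.5 ± 0.07), the growth factor Areg (-0.70 ± 0.12 and 1.03 ± 0.12) and the retinol dehydrogenase Rdh10 (-0.43 ± 0.06 and 1.05 ± 0.06) likewise fell with SQ1 and rose with pravastatin; Rdh10 was not called with SQ1 after median centring. Slc7a11 was above control with both, at 0.78 ± 0.09 and 3.0 ± 0.09. Cxcl5 (-1.75 ± 0.19 and 0.37 ± 0.19) and Gvin1 (-1.37 ± 0.21 and 0.59 ± 0.21) fell with SQ1, while with pravastatin their arrays lay on both sides of 0. In the ATF4 and CHOP list, where SQ1 lowered 10 of 17 genes, pravastatin raised 13 and lowered 1.

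**Figure D5:**
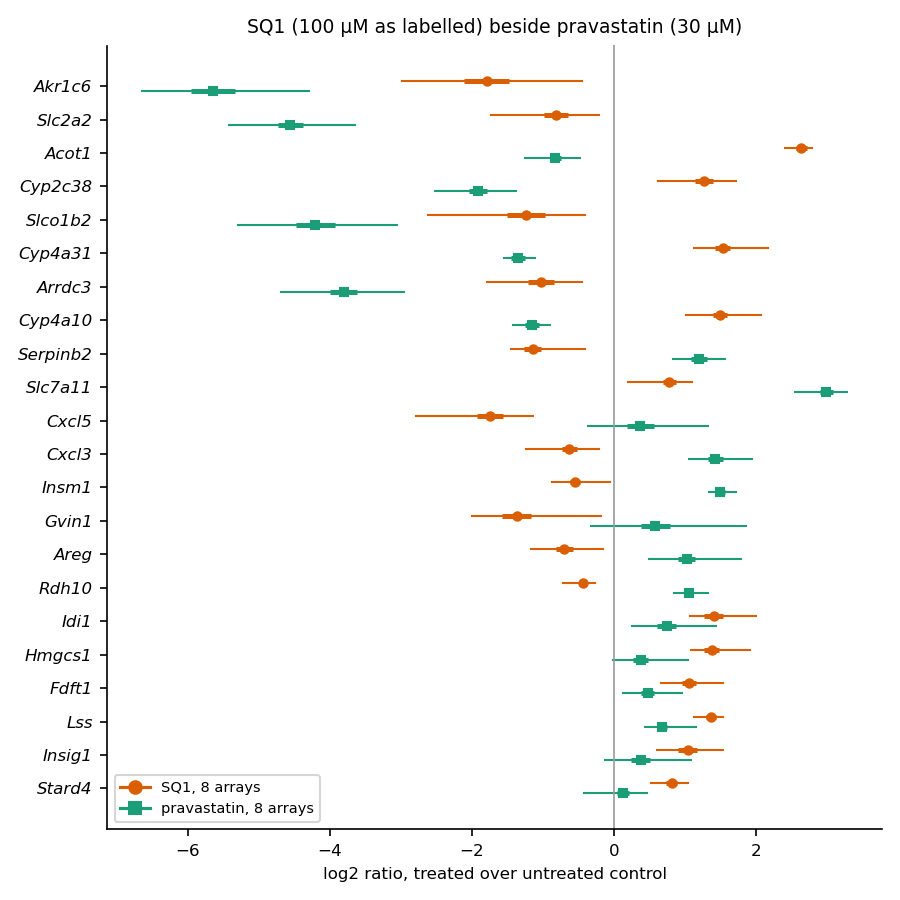
Log2 ratio over untreated control for SQ1 (circles, 8 arrays) and pravastatin (squares, 8 arrays), with the standard error as a thick bar and the range over arrays as a thin line, for the 16 genes with the largest differences and 6 sterol genes. Acot1, Cyp4a31, Cyp4a10 and Cyp2c38 lie above 0 with SQ1 and below 0 with pravastatin, and Serpinb2, Cxcl3, Insm1, Areg and Rdh10 the reverse.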

How the data were processed

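RNA of treated and untreated hepatocytes was hybridized in opposite dyes to 2-colour Agilent arrays, 500 ng of total RNA a sample per the labels, and read with Agilent Feature Extraction 11.0.1.1 per the submitters' processing notes. The deposited files hold for each spot the median intensity of both channels and of their background, Agilent's processed signals, which are intensities after its own background and dye correction, and its log10 ratio of red over green, as their column headers say. The series table deposited by the authors holds log2 ratios, 1 for each probe and array; its scale and direction were found by setting it against the scanner files (Pearson r of 0.743 to 0.999 across probes with the ratio of treated over control).

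The median signals were background corrected (normexp, offset 50) and normalized by loess within each array, with control spots and outlier spots at weight 0, in limma 3.58.1 (R 4.3.3; figures with Python 3.11.15 and matplotlib 3.10.9). The design had named the spot signal without saying mean or median; the files hold the median. Spots of a probe were averaged, ratios turned to treated over control, and 1 probe kept for each gene, that of the highest mean intensity. Of 39429 probes 27234 carried the name of 20659 genes; the other 12195 were not analysed here. Probes entered the tests when marked well above background in 4 or more treated channels of either drug or in 8 or more control channels, and when 7 or more arrays per drug gave a ratio, which left 15053 genes and 5606 untested. Models were fitted to all 16 arrays with a term for each drug and for the dye (13 residual degrees of freedom) and tested on simulated data; the Benjamini-Hochberg adjustment ran across all genes tested, with a threshold of 0.05. Arrays carry no read depth, and their number limits the precision: the median standard error was 0.0398 on the log2 scale.

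The 39 gene lists, the members and the tests were chosen with earlier results of these data known. Genes were named by a rule: the cholesterol synthesis genes, the 15 largest rises and falls, up to 4 in each direction from every list, the 6 largest differences between slides and the 8 largest differences from pravastatin in each direction, cell type markers and paralogs; list genes and top genes had to be called also with slide as a random block and to have 1 sign on 8 of 8 arrays. Other list members, among them those given as not called, were named after their values were seen. Some genes that the rule selects are counted in their lists but not reported by name here. A further 5 list members that the array names by another symbol, by the synonyms of RefSeq (GRCm38.p6), were not counted in their lists. SQ1 and pravastatin arrays of the same replicate number deviated together from their group means (correlations of 0.221 to 0.718 in all 8 numbers), so the numbers were taken as pairing the arrays; the labels do not state it, and a shared control culture would give such a correlation, and only 3 of the 8 SQ1 arrays correlated best with the pravastatin array of their own number. Alternatives covered the signal, background offset, normalization, filter, probe rule, blocks for slide, scan day and replicate number, array weights and leaving out each replicate.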

Additional observations from a re-analysis of the deposited data

Results flagged for a closer look

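Among 291 values tested over the 8 SQ1 arrays, 7 had an array that lay far from the other 7 by Dixon's test; chance gives about 1 in 20. Mmp12, the macrophage elastase, was at -1.89 in replicate 6, with the next array at -1.23. Slc2a2, the glucose carrier, was at -1.73 in replicate 1, with the next at -0.87. In the same replicate Pltp was at 0.0753, with the next at 0.32. Cyp1a1 was at 2.5 in replicate 7, with the next at 1.62. Agpat3 was at 0.76 in replicate 4, with the next at 0.50. Psat1 was at -0.25 in replicate 8, with the next at -0.46. Sult2a2 was at 0.14 in replicate 5, with the next at 0.74. Each of these genes had the same sign on 8 of 8 arrays.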

How the results depend on the processing

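Each array scaled to its median in place of loess gave 2071 called genes (1473 higher, 598 lower), 3697 differences from pravastatin and 11 between slides, and moved the median of all genes to 0.067. With slide as a random block 2543 genes were called (1221 higher, 1322 lower), and 2239 under the scan-day block (990 higher, 1249 lower); all SQ1 arrays and 1 pravastatin slide were scanned on the same day, the other pravastatin slide on another. At an adjusted p of 0.01 the counts were 3121 (1542 higher, 1579 lower), with 541 differences between slides. Leaving out each SQ1 replicate in turn gave 4051 to 4495 calls. Slide 1 alone gave 5237 calls and slide 2 alone 4062, a split chosen after seeing the data. Agilent's processed signals gave 5412, the deposited series values 5409, a background offset of 16 4784, no filter on dim probes 4683, the strictest filter 4684, the mean of all probes of a gene 4916, the 8 SQ1 arrays alone 4800, slide terms 6157 and array weights 5751. The difference from pravastatin cannot be computed from the SQ1 arrays alone.

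With the replicate number as a random block, as the pairing allows, 4725 genes were called (4585 shared with the 4860) and 9620 differed from pravastatin; no call of a gene named here changed under it. The causes of these shifts were not tested. No called gene named here changed sign under any alternative. Of 65 called genes named here that had a further tested probe, 45 had all probes on the same side of 0 with no other probe under 50% of the size of the one used, 14 had a smaller one on that side, down to values near 0, and 6 had one on the other side.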

Other observations

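Some families outside the lists moved together. The genes below were picked after their values were seen. The intracellular protease inhibitors of the Serpinb9 cluster rose on 8 of 8 arrays: Serpinb9g by 1.32 ± 0.14, Serpinb9f by 1.24 ± 0.14, Serpinb9e by 1.11 ± 0.12 (0.34 on another probe), Serpinb9c by 0.91 ± 0.11 (0.44 on another probe) and Serpinb9d by 0.45 ± 0.08, whereas Serpinb9 itself, the granzyme B inhibitor, was at -0.02 ± 0.05 and was not called. These genes are close in sequence, and cross-reaction of the probes was not tested. Of the hydroxysteroid sulfotransferases, Sult2a2 rose by 0.90 ± 0.10 and Sult2a6 by 0.99 ± 0.11, as Sult2a1 did.

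The secreted serpins split in direction. Serpina5, the protein C inhibitor, rose by 0.96 ± 0.06 on 8 of 8 arrays, while Serpina11 (-0.90 ± 0.06) and Serpina10 (-0.50 ± 0.04), an inhibitor of activated coagulation factor X, fell on 8 of 8. The chemokines Ccl4 (-1.17 ± 0.09), Ccl3 (-0.60 ± 0.07) and Cxcl13 (-0.82 ± 0.13) fell beside those of the list.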
